A study of Mus musculus with 4 samples.

Results

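The glutathione S-transferases examined here are 10 mouse genes of the alpha (Gsta3, Gsta4), mu (Gstm1, Gstm2, Gstm5), pi (Gstp1, Gstp2), theta (Gstt1), omega (Gsto1) and microsomal (Mgst1) classes. They were taken by symbol, through their Ensembl identifiers, from a table of 35275 genes, and all 10 were present and passed the filter on low values in every library. RNA was sequenced from lung tumours of Balb/c mice that were wild type (Nrf2 +/+) or Nrf2 knockout (Nrf2 -/-), with 2 libraries per genotype. Mice of both genotypes had been given vinyl carbamate, a carcinogen that induces lung tumours, at 16 mg/kg in 2 or 4 doses, and tumours were taken 40 to 44 weeks after the carcinogen. Each sample pooled 3 to 4 tumours, so a library is not 1 tumour. The design text counts 2 mice per genotype, and the labels give neither the number of doses and weeks of each sample nor the construction of the Nrf2 allele, and an effect of those differences cannot be told apart from one of genotype.

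Glutathione S-transferases join the thiol of glutathione to electrophiles such as epoxides, quinones and lipid aldehydes, which makes these compounds more soluble and ready for export. The alpha, mu, pi, theta and omega classes are mostly soluble enzymes, and Mgst1 is a membrane protein of the endoplasmic reticulum and outer mitochondrial membrane that also reduces lipid peroxides. Nrf2, the product of Nfe2l2, binds antioxidant response elements together with small MAF proteins, and several alpha and mu class genes are textbook targets.

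Gsta3 and Gstm1 fell in knockout tumours, and the other 8 genes did not pass the test. A call means an adjusted p under 0.05 from limma, fitted on log2(FPKM + 1) over all 13147 genes tested, where FPKM is fragments per kilobase of gene, scaled to the depth of the library. Calls numbered 2 of 10, both downwards, where 0.114% of all genes tested were called in either direction, 0.038% downwards and 0.0761% upwards. Both knockout libraries lay below both wild-type libraries for 6 of the 10 (25.4% of all genes tested) and above them for 1 (22.7%). At an unadjusted p under 0.05, 4 members were lower (7.01% of all genes tested) and 1 was higher (8.36%), where 15.4% of all genes passed in either direction. The median log2 fold change of the 10 was -0.36, against -0.00434 for all genes tested. An exact permutation test (two-sided) over 4 libraries cannot go below 0.333, so that the p-values rest on limma's model and on the spread between these samples.

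**Figure D1:**
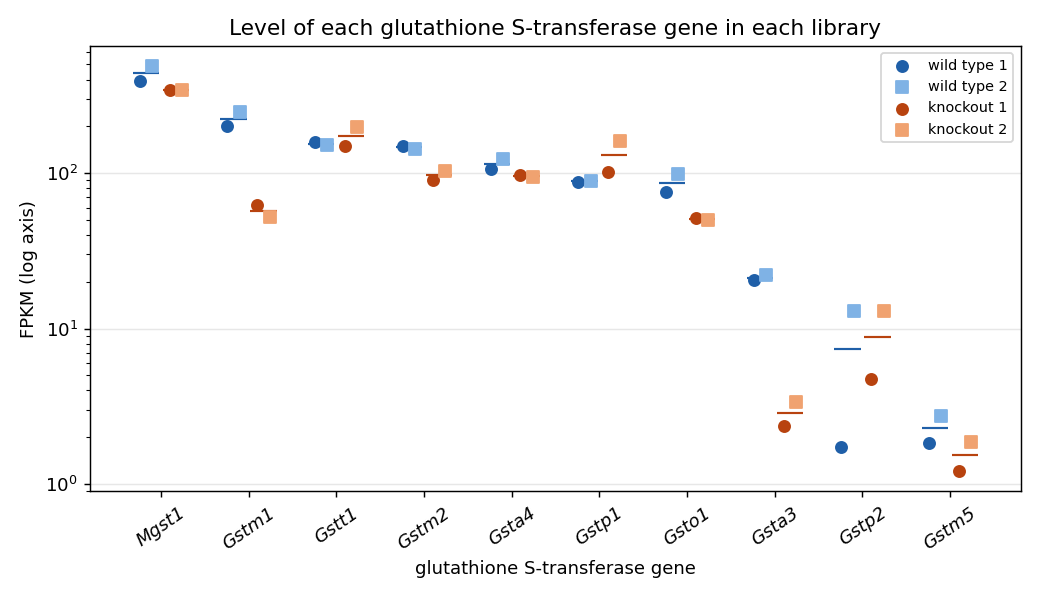
FPKM (log axis) of the 10 genes, ordered by their wild-type mean, in wild-type (blue) and knockout (orange) libraries; points are libraries and short lines are means of 2. The knockout points of Gsta3 and Gstm1 lie well below the wild-type points, and those of Gstp2 differ more by library than by genotype.

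The totals implied by the deposited values ranged from 16892588 to 21659572 reads a library, and both knockout totals were below both wild-type totals. Nfe2l2, which checks the labels, had 96.3 and 87.9 FPKM where the label was wild type, against 3.66 and 2.96 FPKM where it was knockout. The labels name no cell type. All 9 surfactant and other alveolar type 2 markers were tested, and their summed level lay between 117152 and 137544 FPKM in the 4 libraries. Most of that sum was Sftpc, at 75159 and 77718 FPKM in wild type and 90474 and 76027 FPKM in knockout. In tissue RNA, fewer cells that express a gene and less RNA per cell cannot be told apart.

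Gsta3 encodes an alpha class enzyme that conjugates reactive epoxides and lipid peroxidation products. The gene lies on chromosome 1 from 21240589 to 21265661 (mm10). Its level was 20.6 and 22.0 FPKM in wild type 1 and 2 and 2.34 and 3.38 FPKM in knockout 1 and 2. Both knockout libraries were far below both wild-type libraries, and replicates of a genotype lay close together. The mean was 7.43 times as high in wild type, with a log2 fold change of -2.54 (95% interval -2.93 to -2.15; limma adjusted p = 0.0108). With a pseudocount of 10 in place of 1 the log2 fold change was -1.28, and the call held. The value rested on 655 and 686 reads in wild type and on 62 and 84 reads in knockout. Counting error alone gave 95% exact Poisson intervals of 1.80 to 3.01 and 2.70 to 4.19 FPKM for the knockout libraries, far below the wild-type levels. No stretch of 50 bases in its protein-coding transcripts occurred in a transcript of another gene. Its sequence before the start is shown because it holds the core letters of an antioxidant response element. The 250 bases before its RefSeq start (GRCm38.p6, chr1:21240335-21240584, plus strand) are given below 5′ to 3′, with the match to TGACNNNGC in capitals, 121 bases before the start.
Gsta3: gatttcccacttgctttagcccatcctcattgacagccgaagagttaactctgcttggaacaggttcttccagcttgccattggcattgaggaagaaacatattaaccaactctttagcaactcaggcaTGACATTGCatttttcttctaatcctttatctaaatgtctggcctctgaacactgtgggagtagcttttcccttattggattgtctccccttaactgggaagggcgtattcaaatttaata

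Gstm1 had the highest level of the mu class genes in wild-type tumours, and its enzyme conjugates aryl epoxides. It lies on chromosome 3 from 108012255 to 108017973 (mm10), inside a cluster of mu class genes. Its level was 200 and 247 FPKM in wild type 1 and 2 and 62.1 and 52.4 FPKM in knockout 1 and 2. The groups were widely apart, and the gap between them exceeded the spread within either genotype. The mean was 3.91 times as high in wild type, with a log2 fold change of -1.95 (95% interval -2.31 to -1.58; limma adjusted p = 0.024). Between 828 and 4913 reads stood behind each value. Of the 50-base stretches in its coding transcripts, 19.9% also occurred in another annotated gene, chiefly the pseudogene Gstm2-ps1 and Gstm3. Gstm3 was listed at 0 in all 4 libraries. The 250 bases before the RefSeq start that matches the annotated gene end (GRCm38.p6, chr3:108017974-108018223, minus strand) held none of the motifs searched, and they are shown for comparison with Gsta3, as the other gene that fell.
Gstm1: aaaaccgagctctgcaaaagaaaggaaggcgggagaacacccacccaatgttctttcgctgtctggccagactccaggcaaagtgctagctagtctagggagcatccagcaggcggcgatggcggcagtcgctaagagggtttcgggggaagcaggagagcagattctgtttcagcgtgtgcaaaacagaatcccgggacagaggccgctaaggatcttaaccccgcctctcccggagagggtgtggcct

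Sequence before the start was available for 9 of the 10 genes, in 11 RefSeq entries. Searched on both strands were TGACNNNGC, the core of the antioxidant response element, the variant core TGAGNNNGC, and TGACTCA, the site of AP-1 dimers, which can overlap the others. TGACNNNGC was present for 3 genes, Gsta3, Gstm5 and Mgst1, and in 10.2% of all 32851 promoter entries over the same 250 bases. TGAGNNNGC was present for 4 genes, Gstm5, Gstp1, Gstp2 and Gstt1 (14.4%), and TGACTCA for 3, Gstm5, Gstp1 and Gstp2 (4.46%). These matches are letters in a window of the reference genome, and binding was not measured. Among the genes with a match, Gsta3 was called and the others were not. Gstm1 was called and had no match in either of its entries.

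The other mu class members were lower by smaller amounts and were not called. Gstm2, a close relative of Gstm1, lies on chromosome 3 from 107981702 to 107986453 (mm10). Its level was 150 and 144 FPKM in wild type 1 and 2 and 90.7 and 103 FPKM in knockout 1 and 2. The groups did not overlap, and the difference was larger than the spread within either genotype. Its log2 fold change was -0.60 (95% interval -0.88 to -0.32), with a limma adjusted p = 0.134. Gstm5, whose product is known mainly from brain and testis, was a low gene in these tumours, at 1.84 and 2.74 FPKM in wild type and 1.21 and 1.86 FPKM in knockout. Its groups overlapped, it rested on 18 to 48 reads a library, and its log2 fold change was -0.37 (95% interval -0.89 to 0.15; limma adjusted p = 0.456). It overlaps 4933431E20Rik on the opposite strand, and reads of that gene, listed at 0.299 to 0.685 FPKM, cannot be told apart from its own if strand was not used. The ratio of Gstm1 to Gstm2 within a library was 1.34 and 1.72 in wild type 1 and 2 and 0.685 and 0.51 in knockout 1 and 2. Gstm1 was thus the higher of the 2 genes in both wild-type libraries and the lower in both knockout libraries.

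Within the mu cluster on chromosome 3, the neighbours of Gstm1 differed in how they compared. Gstm4, next to Gstm1 on its upstream side, was at 9.87 and 12.97 FPKM in wild type and 9.14 and 10.7 FPKM in knockout, with overlapping groups (log2 fold change -0.18, limma adjusted p = 0.636). Gstm6 and Gstm7 were below the filter and were not tested. Gstm6 had 16 and 21 reads in wild type 1 and 2 and 5 and 6 reads in knockout 1 and 2, and Gstm7 had 7 to 12 reads in each library. From these few reads Gstm6 was lower in both knockout libraries, with no test.

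The second alpha member, Gsta4, conjugates 4-hydroxynonenal, an aldehyde formed from oxidized lipids. It lies on chromosome 9 from 78182774 to 78209349 (mm10). Its level was 106 and 123 FPKM in wild type 1 and 2 and 97.8 and 94.0 FPKM in knockout 1 and 2. The knockout libraries were lower without overlap, by a margin smaller than the gap between the wild-type libraries. Its log2 fold change was -0.25 (95% interval -0.54 to 0.04; limma adjusted p = 0.391). The ratio of Gsta3 to Gsta4 was 0.195 and 0.178 in wild type and 0.024 and 0.036 in knockout, so that the 2 alpha genes did not keep their proportion. Gsta1, another alpha class gene, was below the filter, with 20 and 12 reads in wild type 1 and 2 and 2 reads in each knockout library.

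The pi class members did not fall. Gstp1, the pi class enzyme that also binds and restrains the kinase JNK, lies on chromosome 19 from 4035407 to 4037985 (mm10). Its level was 87.9 and 88.9 FPKM in wild type 1 and 2 and 102 and 162 FPKM in knockout 1 and 2. Both knockout libraries were higher, knockout 2 by far the most, and the spread between the knockout libraries exceeded the gap from knockout 1 to wild type. Its log2 fold change was 0.53 (95% interval 0.01 to 1.05; limma adjusted p = 0.32). Without knockout 1 it was 0.86 and without knockout 2 it was 0.20, so the size rests on which knockout library is used.

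Gstp2, an adjacent copy of Gstp1 on chromosome 19 from 4040285 to 4046023 (mm10), was the most variable member. Its level was 1.74 and 13.04 FPKM in wild type 1 and 2 and 4.77 and 12.9 FPKM in knockout 1 and 2. The high libraries were wild type 2 and knockout 2, and the low ones wild type 1 and knockout 1, so the genotypes overlapped completely. These values came from 29, 213, 66 and 168 reads in that order, and counting intervals of 1.16 to 2.50 and 11.3 to 14.9 FPKM for the wild-type libraries were far apart. The log2 fold change of 0.53 had a 95% interval of -1.36 to 2.42 (limma adjusted p = 0.788), and it was -0.65 without wild type 1 and -0.10 without knockout 2. Gstp1 differed little between the same wild-type libraries, and the ratio of Gstp2 to Gstp1 ran from 0.0198 in wild type 1 to 0.147 in wild type 2.

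Reads of Gstp1 and Gstp2 are hard to separate, and their sequences are shown for that reason. Their coding sequences of 633 bases, from GENCODE transcripts of GRCm38, differ at 12 bases (98.1% identity), with an identical run of 303 bases. Of the 50-base stretches in their coding transcripts, 51.0% of those of Gstp1 and 50.4% of those of Gstp2 occur in another annotated gene. How reads that fit both were counted is not given in the sources used here. The stretch with the most differences, bases 1 to 90 of the coding sequence, is given 5′ to 3′ with the 6 differing bases in capitals. It comes from the reference strain, and Balb/c alleles were not analysed here.
Gstp1 coding: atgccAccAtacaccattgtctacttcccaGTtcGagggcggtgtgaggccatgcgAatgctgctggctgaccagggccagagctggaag
Gstp2 coding: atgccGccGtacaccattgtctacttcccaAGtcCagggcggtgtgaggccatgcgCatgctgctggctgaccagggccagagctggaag

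The sequence before each start is shown because both genes of the pair hold the same motif. The listed level of Gstp2 was far below that of Gstp1 in every library, subject to how shared reads were counted. The 250 bases before each RefSeq start (GRCm38.p6, minus strand; chr19:4037913-4038162 for Gstp1 and chr19:4042222-4042471 for Gstp2) are given 5′ to 3′ with motif matches in capitals. Both hold TGAGTCAGC, whose opposite strand contains TGACTCA, 74 bases before the start of Gstp1 and 89 bases before that of Gstp2.
Gstp1 promoter: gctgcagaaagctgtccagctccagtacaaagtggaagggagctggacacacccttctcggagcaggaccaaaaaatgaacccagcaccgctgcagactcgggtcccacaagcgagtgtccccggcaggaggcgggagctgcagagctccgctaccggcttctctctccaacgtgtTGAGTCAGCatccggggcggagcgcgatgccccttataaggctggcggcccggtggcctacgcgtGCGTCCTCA
Gstp2 promoter: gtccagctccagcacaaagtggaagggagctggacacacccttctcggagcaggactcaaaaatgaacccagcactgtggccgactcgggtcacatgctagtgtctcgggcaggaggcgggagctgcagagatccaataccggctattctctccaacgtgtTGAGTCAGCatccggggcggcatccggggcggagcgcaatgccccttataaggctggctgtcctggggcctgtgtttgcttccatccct

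Summing the pi genes makes the level depend less on how reads were divided within the pair. The sum does not correct for reads that were left out or counted for both genes. Both genes also share 50-base stretches with Gstp-ps, another annotated gene, and reads that fit it are not settled by the sum. Gstp1 and Gstp2 together were at 89.7 and 102 FPKM in wild type 1 and 2 and at 106 and 175 FPKM in knockout 1 and 2. The knockout libraries were again higher, with knockout 1 close to wild type 2. Gstp3, the third pi gene of the locus, was at 42.9 and 55.1 FPKM in wild type and 42.9 and 55.9 FPKM in knockout, without a difference between genotypes beyond the spread (log2 fold change 0.01, 95% interval -0.42 to 0.44).

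Gstt1, the theta class enzyme that acts on small halogenated compounds, lies on chromosome 10 from 75783813 to 75798584 (mm10). Its level was 158 and 152 FPKM in wild type 1 and 2 and 149 and 197 FPKM in knockout 1 and 2. Knockout 2 was the highest library and knockout 1 the lowest, so the groups overlapped. On the log2 scale the fold change was 0.15 (95% interval -0.23 to 0.53; limma adjusted p = 0.687), and -0.05 without knockout 2. Its neighbour Gstt3 had nearly the same profile: the ratio of Gstt1 to Gstt3 stayed between 2.47 and 2.59 over the 4 libraries.

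Gsto1, the omega class enzyme, reduces mixed disulfides and dehydroascorbate and can remove glutathione from proteins. It lies on chromosome 19 from 47854970 to 47864790 (mm10), overlapping Cfap43, which was at 6.36 to 8.05 FPKM on the opposite strand. The level of Gsto1 was 75.1 and 98.3 FPKM in wild type 1 and 2 and 51.3 and 49.7 FPKM in knockout 1 and 2. The knockout libraries nearly coincided, below both wild-type libraries, and the wild-type libraries differed from each other by about as much as wild type 1 did from knockout. The log2 fold change was -0.76 (95% interval -1.12 to -0.40), the largest among the members not called, with a limma adjusted p = 0.139.

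Mgst1 was the highest member in every library and stood at the 98.5th percentile of mean FPKM among all genes tested. It lies on chromosome 6 from 138140316 to 138156755 (mm10). Its level was 393 and 487 FPKM in wild type 1 and 2 and 342 and 344 FPKM in knockout 1 and 2. The knockout libraries lay together below both wild-type libraries, and the gap between the wild-type libraries was larger than that from wild type 1 to either knockout library. Its fold change on the log2 scale was -0.35 (95% interval -0.71 to 0.01; limma adjusted p = 0.342).

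**Figure D2:**
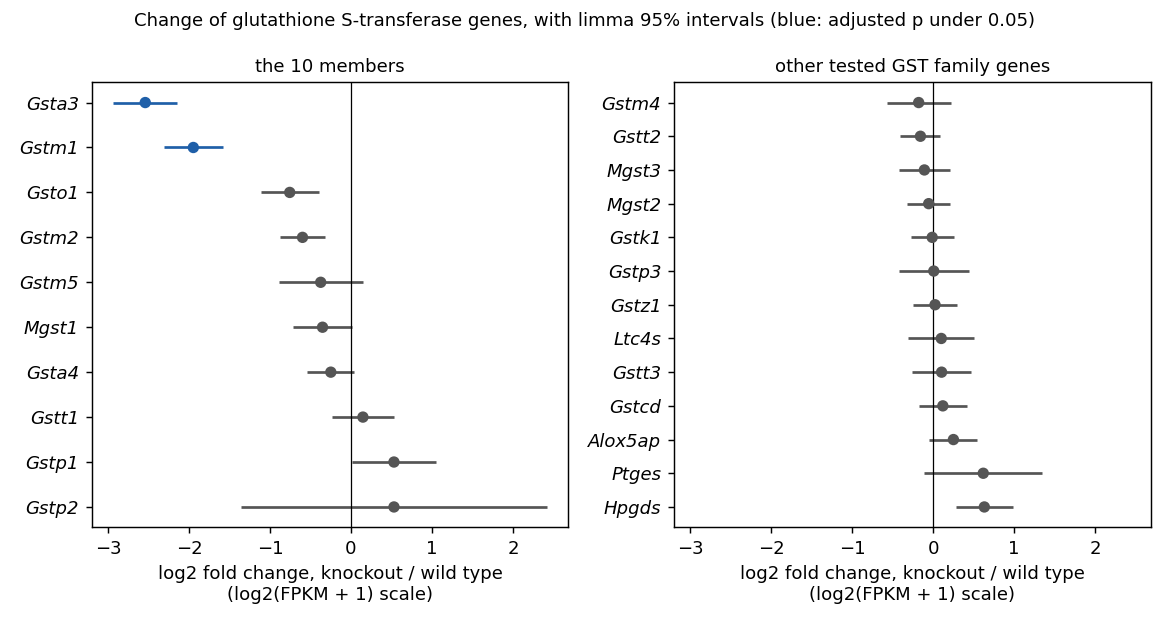
Log2 fold change (knockout over wild type, on the log2(FPKM + 1) scale) with limma 95% intervals for the 10 members (left) and the 13 other tested genes of the family (right). Gsta3 at -2.54 and Gstm1 at -1.95 stand apart on the left, and the genes on the right lie between -0.18 and 0.63.

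In wild-type tumours the order of the mean levels, highest first, was Mgst1, Gstm1, Gstt1, Gstm2, Gsta4, Gstp1, Gsto1, Gsta3, Gstp2 and Gstm5. FPKM is per length, so these levels can be compared between genes, with a limit. The ranks of genes that share stretches with others, chiefly Gstp1, Gstp2 and Gstm1, depend on how shared reads were counted. Neighbours in that order overlapped in their libraries for Gstp1 with Gsto1 and for Gstp2 with Gstm5. In knockout tumours the order was Mgst1, Gstt1, Gstp1, Gstm2, Gsta4, Gstm1, Gsto1, Gstp2, Gsta3 and Gstm5, where Gstt1, Gstp1 and Gstm2 each overlapped the next in line. Gstm1 stood at rank 2 in wild type and at rank 6 in knockout.

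The level of all 10 genes added up was 1193 FPKM in wild type 1 and 1378 FPKM in wild type 2, against 902 FPKM in knockout 1 and 1020 FPKM in knockout 2. Both knockout sums were below both wild-type sums. The mean was 25.3% lower in knockout, at 961 ± 82.9 against 1286 ± 131 FPKM (SD, n = 2 each; exact two-sided permutation p = 0.333, the smallest this design allows). Without Gsta3 and Gstm1 the sums were 972 and 1109 FPKM in wild type and 838 and 964 FPKM in knockout, still without overlap and 13.4% lower in the mean. Of the 6 classes the mu class differed most in FPKM, with 352 and 394 FPKM in wild type against 154 and 157 FPKM in knockout. The pi class alone was higher in both knockout libraries.

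As shares of this sum, Gstm1 made up 16.8% and 17.9% in wild type 1 and 2 and 6.88% and 5.14% in knockout 1 and 2. Gstp1 went the other way, from 7.37% and 6.45% to 11.3% and 15.9%, and Gstt1 from 13.2% and 11% to 16.5% and 19.3%. Shares sum to a whole, so a lower Gstm1 raises the others without any change in their own level. Mgst1 held 32.9% to 37.8% of the sum in all 4 libraries, with overlapping groups.

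**Figure D3:**
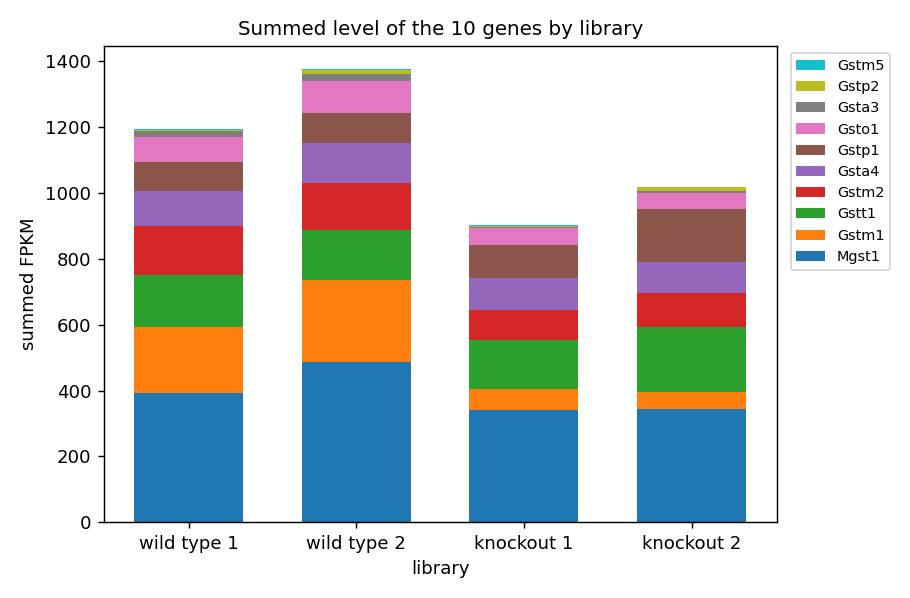
Summed FPKM of the 10 genes in each library, stacked by gene on an axis from 0. The knockout bars (902 and 1020) are lower than the wild-type bars (1193 and 1378), and the Gstm1 segment shrinks from 200 and 247 to 62.1 and 52.4 FPKM.

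Of 25 further family genes listed, 21 were in the table and 13 were tested. Limma called 0 of them, and 1 had an unadjusted p under 0.05 (15.4% of all genes tested). That gene was Hpgds, the sigma class enzyme that makes prostaglandin D2 in mast cells, macrophages and T helper cells. It was at 1.49 and 1.5 FPKM in wild type and 2.80 and 2.95 FPKM in knockout (log2 fold change 0.63, limma adjusted p = 0.169). The median log2 fold change of the 13 was 0.02. Limma-voom on recovered reads called 0 of them too. Their summed level with the untested genes was 492 and 535 FPKM in wild type and 530 and 574 FPKM in knockout, with overlapping groups.

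Genes that make, recycle and use glutathione, or handle its conjugates, were read from the same fit. Of 42 listed, 37 were tested, 1 was called (0.114% of all genes tested), and their median log2 fold change was 0.03. The called gene was Gpx2, a glutathione peroxidase of epithelia, at 9.30 and 9.89 FPKM in wild type and 1.46 and 1.28 FPKM in knockout (log2 fold change -2.16, limma adjusted p = 0.0108). At an unadjusted p under 0.05, 5 of the 37 were lower (7.01% of all genes tested) and 4 higher (8.36%). The lower ones included 2 that act on conjugates after the transferases. Ggt1, the gamma-glutamyl transferase that starts conversion of conjugates to mercapturic acids, was at 6.32 and 6.18 FPKM in wild type and 2.81 and 1.497 FPKM in knockout (log2 fold change -1.23, limma adjusted p = 0.12). Abcc3, a transporter that exports conjugates, was at 42.7 and 36.0 FPKM in wild type and 23.5 and 21.2 FPKM in knockout (log2 fold change -0.79, limma adjusted p = 0.11).

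The remaining ones at that level were not called either. Slc7a11, the cystine transporter that feeds glutathione synthesis, had a log2 fold change of -0.71, with 2.01 and 1.72 FPKM in wild type and 0.763 and 0.726 FPKM in knockout, and Oplah, the oxoprolinase of the glutathione cycle, of -0.26 (limma adjusted p = 0.166 and 0.304). Higher in the mean were Gpx3, the secreted peroxidase, at 0.99, Dpep1, a dipeptidase that cleaves conjugates, at 0.95, Chac1, which degrades glutathione, at 0.62, and Glrx5, a mitochondrial glutaredoxin, at 0.30 (limma adjusted p between 0.165 and 0.318). Slc7a11 passed the filter on low values only through the wild-type libraries and Chac1 only through the knockout libraries, where each was high, so their tests support nothing. Dpep1 was at 2.74 and 0.778 FPKM in wild type and 3.28 and 4.83 FPKM in knockout, so its spread was large. Without knockout 1, Ggt1, Abcc3 and Gpx3 passed beside Gpx2. That fit rested on 1 knockout library and called many more genes over the whole table, so nothing about the pathway is concluded from it.

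The tested genes with the pattern nearest to each called member were found by the Euclidean distance between log2(FPKM + 1) values centred on the mean of the 4 libraries. For both Gsta3 and Gstm1 these were Gpx2, Igkv9-120, an immunoglobulin kappa variable segment, and Wfdc10, a whey acidic protein domain gene. Gpx2 was the nearest to both, at distances of 0.518 from Gsta3 and 0.283 from Gstm1. Wfdc10 was at 2.51 and 3.70 FPKM in wild type and 0.364 and 0.258 FPKM in knockout, and it passed the filter only through wild type. Wfdc10 and Igkv9-120 were picked for their pattern, so no test of either is given. The measure was taken over 4 libraries only.

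Markers of bronchiolar club cells were higher in the mean in knockout tumours. Of 8 listed, 7 were tested, all 7 had a positive log2 fold change, 0 were called and 4 had an unadjusted p under 0.05, all higher. Over all genes tested, 7.01% were lower and 8.36% higher at that level, and 0.0761% were called higher. These shares stand beside all marker counts in this paragraph. The summed level of the club markers was 2233 and 1099 FPKM in wild type 1 and 2. In knockout 1 and 2 it was 2861 and 3778 FPKM, with 0 markers at 0 in all libraries. Scgb1a1, the club cell secretoglobin, was at 1709 and 723 FPKM in wild type and 1996 and 3099 FPKM in knockout. Knockout 2, with the highest sum of club markers, was also the highest library for Gstp1 and Gstt1. It had the highest sums of ciliated, alveolar macrophage, neutrophil, endothelial and fibroblast markers too, but not of alveolar type 1, alveolar type 2 or erythroid markers. Between wild type 1 and 2, where the club sums were 2233 and 1099 FPKM, Gstp1 was at 87.9 and 88.9 FPKM and Gstt1 at 158 and 152 FPKM. The part of club cells in the levels of Gstp1 and Gstt1 was not tested. For alveolar type 2 markers the median log2 fold change over 9 was -0.02, with 0 called and 1 at an unadjusted p under 0.05. Alveolar macrophage markers went both ways, with 0 of 8 called and, at an unadjusted p under 0.05, 2 lower and 2 higher. Marco, a scavenger receptor, was at 20.9 and 15.4 FPKM in wild type and 3.78 and 1.34 FPKM in knockout. Its log2 fold change of -2.50 (limma adjusted p = 0.0852) was close in size to that of Gsta3, and that of Pparg was -0.58. Siglecf and Chil3, named by the same rule, had log2 fold changes of -0.07 and 0.56, with overlapping groups. Ear2 and Fabp4, named after their values were seen, had log2 fold changes of 0.59 and 1.19. The median of the 8 was 0.01, with sums of 921 and 809 FPKM in wild type and 926 and 1569 FPKM in knockout. Most of the 1569 FPKM in knockout 2 was Chil3, at 1029 FPKM. Marco, Siglecf and Pparg were at their lowest in that library, and Chil3, Ear2 and Fabp4 at their highest. Endothelial and fibroblast markers had medians of 0.46 and 0.61 over 8 and 7. Of 6 tested neutrophil markers 3 rose, S100a8, S100a9 and Csf3r, and the sum over the list of 8 was 28.1 and 28.8 FPKM for wild type, against 99.0 and 113 FPKM for knockout. Erythroid markers were higher in the mean for 5 of 5 tested, each at an unadjusted p under 0.05 and 0 called, with a median of 1.42. Among these, Hbb-bt was at 0.394 and 0.536 FPKM in wild type and 2.53 and 1.68 FPKM in knockout. It passed the filter on low values only through the knockout libraries, where it was high, so its test supports nothing. The erythroid sums were 247 and 490 FPKM for wild type against 1194 and 1094 FPKM for knockout. Ciliated cell markers had positive values for 5 of 5 tested, with a median of 0.52, 2 at an unadjusted p under 0.05 and 0 called, and sums of 36.4 and 22.5 FPKM for wild type against 45.4 and 52.5 FPKM for knockout. The part of any of these cell types in the levels of the members was not tested.

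The calls of Gsta3 and Gstm1 held with each library left out in turn. With 1 library of a genotype left, that library is assumed to vary like the other pair. The log2 fold change then ran from -2.73 to -2.35 for Gsta3 (limma adjusted p from 0.000317 to 0.0382) and from -2.10 to -1.79 for Gstm1 (0.00202 to 0.0397). Gstm2, Gsto1, Mgst1, Gsta4 and Gstm5 were lower in the mean with every library left out, and were not called. Gstp1 was higher each time. With no filter on low values, neither Gsta3 nor Gstm1 was called (limma adjusted p = 0.21 and 0.212), at unchanged fold changes and over 21601 genes.

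**Figure D4:**
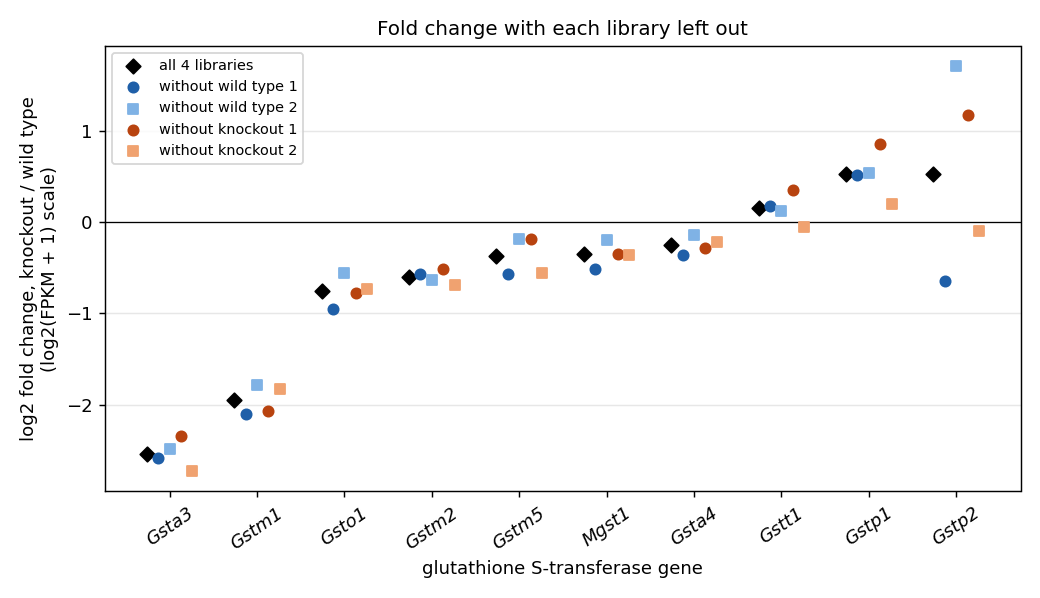
Log2 fold change (knockout over wild type, log2(FPKM + 1) scale) of each gene with all 4 libraries (diamonds) and with each library left out. Gsta3 stays between -2.73 and -2.35 and Gstm1 between -2.10 and -1.79, and Gstp2 runs from -0.65 to 1.71.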

How the data were processed

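RNA from 4 pooled lung tumour samples was sequenced. The authors deposited 1 FPKM value for each gene and library. The submitters' processing notes list mm10, TopHat2 and DESeq2 without saying what each was used for; the counter, annotation and strand setting were not given in the sources used here. Of 35275 identifiers, 34490 matched a GENCODE M21 symbol (GRCm38). Whole read counts were recovered for 21600 of 21601 genes above 0 (tolerance 0.0002 reads), at an annotated length or else the smallest length giving whole numbers, which could undercount. Tested genes had 511 reads in the median, and members 18 to 8574. Counting intervals cover counting error only.

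limma 3.58.1 (R 4.3.3, intensity trend, 2 residual and 4.12 prior degrees of freedom) was fitted on log2(FPKM + 1) to genes that reached 1 FPKM in 2 libraries or more, with Benjamini-Hochberg adjustment, and was tested on simulated data. A fold change on this scale understates the change of low genes. Members, gene lists, motifs and tests were chosen with earlier results of these data known. Named were all members, called list genes and those at an unadjusted p under 0.05 (at most 8 a list), the first tested markers of a list (at most 4), Nfe2l2, and the 3 nearest patterns of each called member. Gstm3, Gstm4, Gstm6, Gstm7, Gsta1, Gstp3, Gstt3, Ptges, Alox5ap and genes overlapping a member were named after their values were seen. Alternatives were other scalings, filters, pseudocounts and call rules, no trend, a replicate block, limma-voom on recovered reads, and leaving out each library.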

Additional observations from a re-analysis of the deposited data

How the results depend on the processing

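Over 13 other fits, Gsta3 and Gstm1 were each called in 12. With no filter on low values they kept log2 fold changes of -2.54 and -1.95 and lost the call, so that 0 members, 0 glutathione pathway genes and 1 gene in all were called. The count over all genes was 15 as reported, 8 with limma-voom on recovered reads and 65 at an adjusted p under 0.1, where the members called remained Gsta3 and Gstm1; with a library left out it ran from 10 to 252, the latter without knockout 1. Leaving out 1 library gave 2 to 3 called members (3 without knockout 1, with Gstp1 at 0.86) and 1 to 4 called pathway genes. The log2 fold change of Gstp2 ran from -0.65 to 1.71, that of Gstt1 from -0.05 to 0.35 and that of Gstp1 from 0.20 to 0.86 over those fits. The difference in summed level, -324.7 FPKM as reported, ran from -417 to -232.3 FPKM with a library left out. With the replicate number as a block 69 genes were called, and the block changed the call of no member. Same-numbered libraries had deviations correlated at -0.306, which does not settle whether the numbers pair the samples. In the crossed pairing, chosen after seeing the data, 848 genes, 4 members (Gstm2 at -0.60 and Gsto1 at -0.76 besides the 2) and 5 pathway genes were called. Low depth limits Gstm5 and the untested family genes, and the spread between libraries limits Gstp2.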
